A study of Mus musculus with 6 samples.

Results

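The genes described here are 10 genes known for their expression in macrophages and in Langerhans cells, the antigen-presenting cells of the epidermis. They were chosen by name (Cd207, Lyz2, Cd68, Adgre1, Csf1r, Mrc1, Cd163, C1qa, C1qb and C1qc) and make up 10 of the 56941 genes in the count table. All 10 passed the expression filter that 32149 genes passed. Total RNA was sequenced from FACS sorted hair follicle stem cells (HFSCs, CD34+/α6-integrin+ cells) of the dorsal skin of female mice at postnatal day (PD) 68, with 3 biological replicates per genotype. The WT mice were K14CreER-/- Dab2fl/fl and the Dab2-cKO mice K14CreER+/- Dab2fl/fl, both on the strain B6;129S4-Dab2tm1Cpr/J. Both therefore carried the floxed Dab2 alleles, and both received tamoxifen at 75 mg/kg on 5 consecutive days, so the genotypes differ in the Cre transgene. The K14 promoter drives the Cre in basal keratinocytes and their follicle progeny, and is not known to be active in macrophages or Langerhans cells.

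Macrophages of the skin live mainly in the dermis and around the follicle, where they take up dying cells and debris, while Langerhans cells sit between keratinocytes and sample antigen. Both depend on the receptor encoded by Csf1r, which binds the cytokines encoded by Csf1 and Il34, and Il34 is the ligand made by keratinocytes. C1qa, C1qb and C1qc encode the chains of C1q, the molecule that starts the classical complement pathway, and in mice they are made largely by macrophages. HFSCs are epithelial cells and are not known to express these genes as part of their programme.

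Dab2, the targeted gene, went against the label. Its normalized count, the count scaled to a common effective library size, was 338, 332 and 309 in the WT libraries but 1434, 1300 and 1390 in the libraries labelled Dab2-cKO. The log2 fold change, given throughout as Dab2-cKO over WT, was 2.08 (standard error, SE, 0.08 and adjusted p = 3.04e-34 by edgeR). The count table names the second group for its floxed alleles, which both genotypes carry, and the series title equates that name with the homozygous cKO. Every direction given here rests on that assignment, and the groups are called by their labels. The total counts lay between 7040032 and 11696457 per library. The share of counts on the top 100 genes was 32.4% to 33.2% in the WT group and 44.0% to 46.2% in the Dab2-cKO group, and that on mitochondrial genes was at most 14.5% in the WT group and at least 19.1% in the Dab2-cKO group. Both shares separate the groups as the members do, and their part in the members' difference was not tested. The genes of the 2 sorting markers were detected in every library. The normalized count of Cd34 was 455 to 561 in the WT and 1755 to 1820 in the Dab2-cKO libraries. That of Itga6, which encodes α6-integrin, was 928 to 1007 and 1377 to 1464. These levels do not measure the share of HFSCs in a library, and genes of the bulge were mixed, as given further on.

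All 10 macrophage and Langerhans cell genes were higher in the libraries labelled Dab2-cKO. Each passed edgeR's test (adjusted p under 0.05, with the adjustment over the whole table), by which 28.2% of the genes tested were called, 16.8% higher and 11.5% lower. None of the 10 was called lower by edgeR or DESeq2, with or without adjustment. In all 10, each Dab2-cKO library lay above each WT library, which held for 20.6% of the genes tested. The log2 fold changes ran from 1.24 for Cd207 to 3.02 for C1qb with a median of 2.35, against a median of -0.02 over all genes tested. Of all genes tested, 6.40% were called higher with a log2 fold change above 1, as all 10 members were. Together the 10 genes took 0.0207% ± 7.11e-05 (SD, n = 3) of all counts in the WT group and 0.0803% ± 0.00284 (SD, n = 3) in the Dab2-cKO group. Their summed normalized counts were 1627, 1763 and 1687 against 8598, 8899 and 8900, a ratio of means of 5.20. These are bulk libraries of sorted cells, in which more cells of a type and more RNA per cell cannot be told apart.

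**Figure D1:**
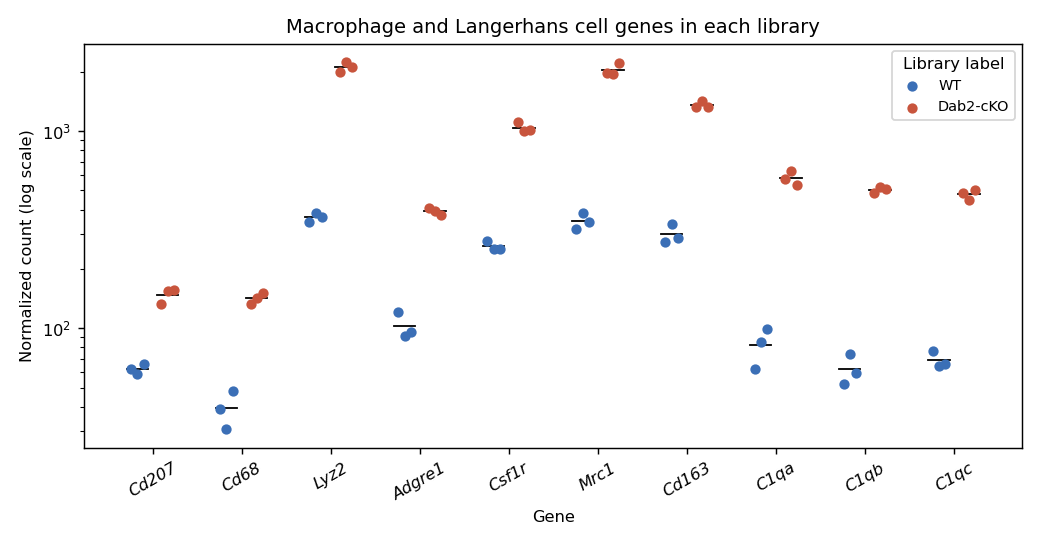
Normalized count (log axis) of each of the 10 genes in the 3 libraries labelled WT and the 3 labelled Dab2-cKO, a point per library with a short line at the mean of the group. For every gene the groups are apart, from Cd207 (62.3 against 148 on average) to C1qb (61.8 against 505).

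Langerin, a C-type lectin of the Birbeck granule and a marker of Langerhans cells, though not of these cells alone, is encoded by Cd207 (ENSMUSG00000034783, GRCm39 chromosome 6, 83648190 to 83654839, minus strand). Its normalized count was 62.4, 58.7 and 65.8 in the WT libraries and 134, 154 and 157 in the Dab2-cKO libraries. The groups did not overlap, and the lowest Dab2-cKO library was 2.03 times the highest WT library. The log2 fold change was 1.24 (SE 0.17, adjusted p = 5.59e-09 by edgeR), the smallest of the 10, and it turned negative when libraries were scaled to leukocyte or fibroblast genes, as given further on.

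The lysosomal genes are Lyz2, which encodes the lysozyme of macrophages and neutrophils, and Cd68, which encodes a membrane glycoprotein of phagocyte lysosomes. Lyz2 (ENSMUSG00000069516, chromosome 10, 117111557 to 117118346, minus strand) had normalized counts of 345, 386 and 368 in the WT libraries and 1996, 2233 and 2123 in the Dab2-cKO libraries. The spread within each group was small beside the gap between them, with coefficients of variation of 5.64% and 5.61%. The log2 fold change of Lyz2 was 2.53 (SE 0.08, adjusted p = 5.07e-40 by edgeR). Its paralog Lyz1 rose by a log2 fold change of 1.17 (SE 0.14, adjusted p = 7.09e-11 by edgeR), and how reads shared by both were counted is not given in the sources used here. Of the exon bases of Lyz2, 16.1% are shared with an antisense lncRNA. Cd68 (ENSMUSG00000018774, chromosome 11, 69555037 to 69557067, minus strand) rested on the fewest counts of the 10 genes, with normalized counts of 39.0, 30.7 and 47.8 in the WT libraries and 133, 143 and 151 in the Dab2-cKO libraries. The WT libraries varied more among themselves (coefficient of variation 21.9%) than the Dab2-cKO libraries (6.57%). Cd68 rose by a log2 fold change of 1.85 (SE 0.19, adjusted p = 8.05e-13 by edgeR).

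Of the surface receptors, Csf1r (ENSMUSG00000024621) encodes the receptor on which the survival of both cell types depends. Its normalized counts were 276, 252 and 252 in the WT libraries and 1108, 1004 and 1008 in the Dab2-cKO libraries. All 3 Dab2-cKO libraries were at least 3.64 times the highest WT library. The log2 fold change was 2.00 (SE 0.08, adjusted p = 5.08e-32 by edgeR), and 19.8% of its exon bases are shared with the antisense gene Hmgxb3. Adgre1 (ENSMUSG00000004730, chromosome 17, 57665573 to 57790527, plus strand) encodes F4/80, the adhesion receptor used to define mouse macrophages, which Langerhans cells also carry. Its normalized counts were 121, 91.2 and 95.7 in the WT libraries and 408, 391 and 374 in the Dab2-cKO libraries. The log2 fold change of Adgre1 was 1.94 (SE 0.12, adjusted p = 1.94e-22 by edgeR), within 1 standard error of that of Csf1r.

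The scavenger receptors showed larger values. Mrc1 (ENSMUSG00000026712, chromosome 2, 14234151 to 14336926, plus strand) encodes the mannose receptor CD206, an endocytic receptor of dermal macrophages. Its normalized counts were 318, 384 and 345 in the WT libraries and 1965, 1953 and 2223 in the Dab2-cKO libraries. The lowest Dab2-cKO library was 5.09 times the highest WT library. Mrc1 rose by a log2 fold change of 2.55 (SE 0.08, adjusted p = 2.1e-39 by edgeR). Cd163 (ENSMUSG00000008845, chromosome 6, 124281606 to 124307560, plus strand) encodes the receptor that clears haemoglobin bound to haptoglobin. Its normalized counts were 273, 338 and 288 in the WT libraries and 1318, 1422 and 1319 in the Dab2-cKO libraries. The groups were again apart, and the log2 fold change was 2.17 (SE 0.08, adjusted p = 1.73e-34 by edgeR). Within a library, Mrc1 had 117, 114 and 120 counts per 100 counts of Cd163 in the WT libraries and 149, 137 and 169 in the Dab2-cKO libraries, without overlap.

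The C1q genes lie side by side on chromosome 4, all on the minus strand, with C1qb (ENSMUSG00000036905) from 136606009 to 136613511, C1qc (ENSMUSG00000036896) from 136616466 to 136620376 and C1qa (ENSMUSG00000036887) from 136623223 to 136626161. The largest log2 fold changes of the 10 genes were theirs. C1qa had normalized counts of 62.4, 84.9 and 99.1 in the WT libraries and 568, 627 and 534 in the Dab2-cKO libraries, a log2 fold change of 2.79 (SE 0.12, adjusted p = 3.66e-31 by edgeR). C1qb had 52.3, 74.0 and 59.0 against 484, 522 and 508, a log2 fold change of 3.02 (SE 0.13, adjusted p = 5.1e-32 by edgeR). C1qc had 76.8, 64.1 and 65.8 against 483, 449 and 503, a log2 fold change of 2.80 (SE 0.12, adjusted p = 1.09e-30 by edgeR). In each of them the lowest Dab2-cKO library was more than 5 times the highest WT library. Of the genes tested, 60 had a larger log2 fold change than C1qb, 86 than C1qc and 87 than C1qa. The C1q protein holds the A, B and C chains in equal numbers, but counts are not corrected for transcript length and do not measure protein. The proportions of the counts of the 3 genes overlapped between the genotypes. Per kb of exon their levels were not equal, at 358 (C1qa), 167 (C1qc) and 80.8 (C1qb) in the Dab2-cKO libraries. Of the C1q counts, C1qa took 38.3% ± 5.86 (SD, n = 3) in the WT and 36.9% ± 2.33 (SD, n = 3) in the Dab2-cKO libraries, C1qb 28.9% ± 3.71 and 32.4% ± 0.720, and C1qc 32.8% ± 6.39 and 30.7% ± 2.34.

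The promoters of the members were read from GRCm39 as the 200 bases before the start of the canonical transcript in GENCODE. The sequences of the adjacent C1q genes are shown with those of Cd207, the gene with the smallest fold change, and Mrc1, the gene with the largest outside C1q. Letters in capitals mark GAGGAA, or TTCCTC where it lies on the other strand, the core letters bound by PU.1, the factor of the myeloid lineage encoded by Spi1. In the sequences printed, C1qb is chr4:136613512-136613711, C1qc chr4:136620377-136620576, C1qa chr4:136626162-136626361, Cd207 chr6:83654840-83655039 (all minus strand) and Mrc1 chr2:14233951-14234150 (plus strand).
C1qa: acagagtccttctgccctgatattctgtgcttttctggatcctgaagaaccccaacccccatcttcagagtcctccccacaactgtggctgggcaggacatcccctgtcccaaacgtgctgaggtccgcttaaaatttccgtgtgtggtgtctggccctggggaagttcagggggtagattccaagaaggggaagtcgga
C1qb: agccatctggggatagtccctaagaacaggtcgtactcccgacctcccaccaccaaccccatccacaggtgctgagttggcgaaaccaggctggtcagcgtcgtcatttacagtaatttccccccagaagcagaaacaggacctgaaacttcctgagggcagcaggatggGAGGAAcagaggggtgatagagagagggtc
C1qc: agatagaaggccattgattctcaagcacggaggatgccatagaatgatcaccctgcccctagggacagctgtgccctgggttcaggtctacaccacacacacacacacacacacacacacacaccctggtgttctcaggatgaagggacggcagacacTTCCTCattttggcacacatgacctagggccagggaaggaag
Cd207: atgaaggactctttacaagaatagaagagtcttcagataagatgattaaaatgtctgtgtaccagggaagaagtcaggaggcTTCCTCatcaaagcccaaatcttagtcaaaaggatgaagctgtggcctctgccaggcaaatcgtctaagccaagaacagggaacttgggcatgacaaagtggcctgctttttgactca
Mrc1: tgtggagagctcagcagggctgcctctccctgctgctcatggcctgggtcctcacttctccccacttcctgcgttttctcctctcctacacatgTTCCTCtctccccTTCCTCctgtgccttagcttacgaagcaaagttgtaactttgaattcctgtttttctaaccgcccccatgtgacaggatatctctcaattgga
GAGGAA was found on either strand in 7 of the 10 promoters (Cd207, Cd68, Adgre1, Csf1r, Mrc1, C1qb and C1qc), and 18.8% of the promoters of this length of 21667 genes hold it. It was not in the windows of Lyz2, Cd163 and C1qa. Adgre1 and Mrc1 each held it at 2 positions. In C1qb it began 30 bases before the start, and in C1qc, on the other strand, it spanned bases 42 to 37 before the start. The letters TGCTGAC, the half-site of the Maf factors of macrophages, were in 0 of the 10 windows and in 2.64% of all. The motifs were chosen with the fold changes known, and a match describes letters and not binding. Whether PU.1 had a part in the members' rise was not tested. Spi1 itself had normalized counts of 50.1, 62.3 and 43.6 in the WT and 194, 220 and 201 in the Dab2-cKO libraries (log2 fold change 1.97, SE 0.17, adjusted p = 8.71e-17 by edgeR).

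To compare levels between the genes, normalized counts were divided by the exon length in kb. As background served 1526 genes of olfactory, vomeronasal and trace amine receptors, which skin is not known to use and which had a median of 4.94 and a 95th percentile of 11.8 normalized counts per kb. In the WT libraries Lyz2 had the highest level of the 10, at 110 per kb. Cd163 (54.0), C1qa (51.0), Mrc1 (44.6) and Cd207 (40.7) followed, each differing from its neighbour in this order by less than the sum of their SDs. Below them came Csf1r (35.3), Adgre1 (29.2), Cd68 (28.6) and C1qc (24.1), whose neighbours also did not differ beyond their spread. C1qb had 9.89 per kb over all its annotated exons, less than the 95th percentile of the background, but 24.4 per kb over its canonical transcript of 2532 bases, since its merged exons span 6246 bases. With an even background subtracted over these long exons the log2 fold change of C1qb was 3.91. In the Dab2-cKO libraries the order was Lyz2 (637 per kb), C1qa (358), Mrc1 (262), Cd163 (244), C1qc (167), Csf1r (141), Adgre1 (111), Cd68 (104), Cd207 (96.9) and C1qb (80.8). There Mrc1 and Cd163, Adgre1 and Cd68, and Cd68 and Cd207 differed by less than the sum of their SDs. The order depends on the length used. Over canonical transcripts Cd207 (40.7) lay just under Csf1r (43.0) in the WT libraries, and in the Dab2-cKO libraries C1qb (199) lay above Csf1r (172), Cd68 (119) and Adgre1 (117), with Cd207 (96.9) the lowest.

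**Figure D2:**
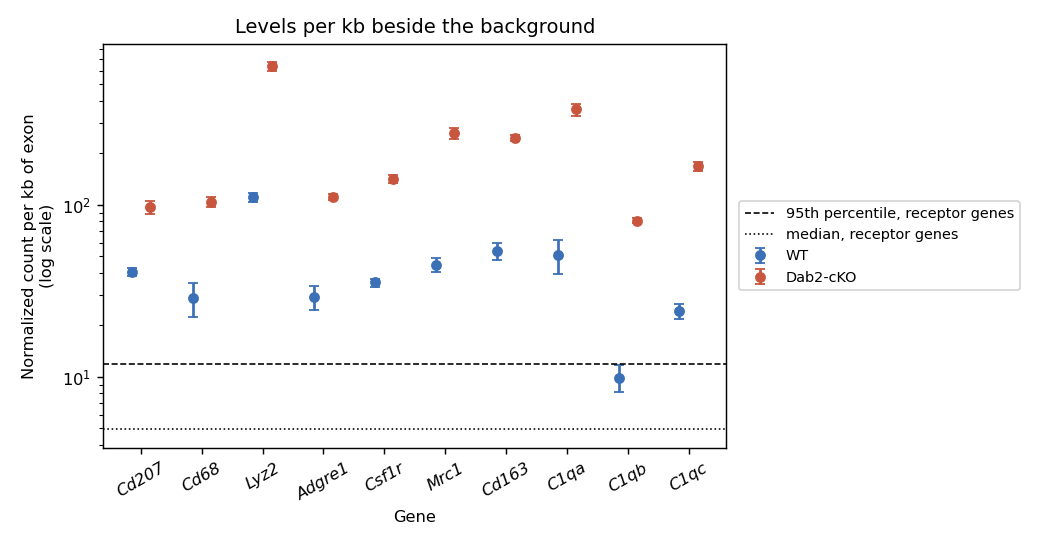
Mean normalized count per kb of exon (log axis) of each gene in the libraries labelled WT and Dab2-cKO, with bars for the SD of 3 libraries and lines for the median (4.94) and 95th percentile (11.8) of the receptor genes taken as background. All points lie above the 95th percentile except C1qb in WT (9.89), whose length includes long annotated exons.

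The members did not rise to the same extent, which was followed as ratios within each library. Per 100 C1q counts there were 32.6, 26.3 and 29.4 Cd207 counts in the WT libraries and 8.69, 9.65 and 10.1 in the Dab2-cKO libraries. The groups were far apart, and Cd207 made up less of the members' counts in the Dab2-cKO (1.68% ± 0.113, SD, n = 3) than in the WT libraries (3.69% ± 0.313, SD, n = 3). Against 100 counts of a list of 20 leukocyte genes (such as Ptprc, encoding CD45, with some, such as Tyrobp and Fcer1g, expressed mainly by myeloid cells), there were 3.17, 3.22 and 3.64 counts of Cd207 in the WT and 2.62, 3.07 and 3.05 in the Dab2-cKO libraries. Lyz2 on the same basis had 17.5, 21.2 and 20.4 against 39.2, 44.5 and 41.3. C1qb had 2.66, 4.05 and 3.26 against 9.52, 10.4 and 9.86. So relative to leukocyte genes Lyz2 and C1qb were again higher without overlap, whereas Cd207 was lower without overlap. Cd68 overlapped on this basis (1.682 to 2.648 against 2.605 to 2.937). With the libraries scaled to this list, 89.8% of the genes tested were lower by edgeR, and Cd207 did not pass the test (adjusted p = 0.285 by edgeR). All 10 genes together had 90.9 ± 7.27 (SD, n = 3) counts per 100 leukocyte counts in the WT and 173 ± 4.22 (SD, n = 3) in the Dab2-cKO libraries.

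**Figure D3:**
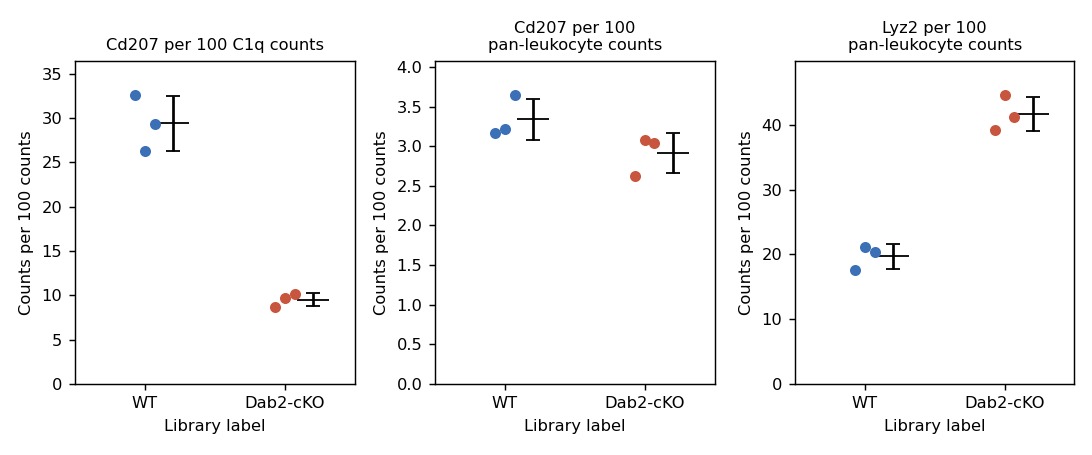
Ratios of counts within each library (counts per 100 counts, axes from 0), a point per library with the mean and SD of 3 beside it. Cd207 per 100 C1q counts is lower in the libraries labelled Dab2-cKO (8.69 to 10.1 against 26.3 to 32.6), Cd207 per 100 pan-leukocyte counts is slightly lower (2.62 to 3.07 against 3.17 to 3.64), and Lyz2 per 100 pan-leukocyte counts is higher (39.2 to 44.5 against 17.5 to 21.2).

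With the libraries scaled so that the summed leukocyte list was equal, a setting chosen after seeing the data, 8 of the 10 genes were higher by edgeR and 0 lower, where 1.67% of the genes tested were higher and 89.8% lower. C1qb (log2 fold change 1.57, SE 0.15), C1qc (1.35, 0.15), C1qa (1.34, 0.14), Mrc1 (1.10, 0.11) and Lyz2 (1.08, 0.10) kept the largest values. Cd163 had 0.72 (0.11), Csf1r 0.56 (0.11) and Adgre1 0.49 (0.14). Cd68 at 0.40 (SE 0.21, adjusted p = 0.062 by edgeR) and Cd207 at -0.20 (SE 0.19, adjusted p = 0.285 by edgeR) did not pass the test. With the libraries scaled to the sum of 12 fibroblast genes instead, also chosen after seeing the data, 7 of the 10 were higher and Cd207 was lower, at -0.45 (SE 0.20, adjusted p = 0.0262 by edgeR), where 1.09% of the genes tested were higher and 93.6% lower. Adgre1 at 0.23 (adjusted p = 0.111 by edgeR) and Cd68 at 0.15 (adjusted p = 0.509 by edgeR) did not pass there, and the C1q genes had 1.10 to 1.33. Both scalings take the scaling sum as fixed, so its own error is not in these SEs.

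**Figure D4:**
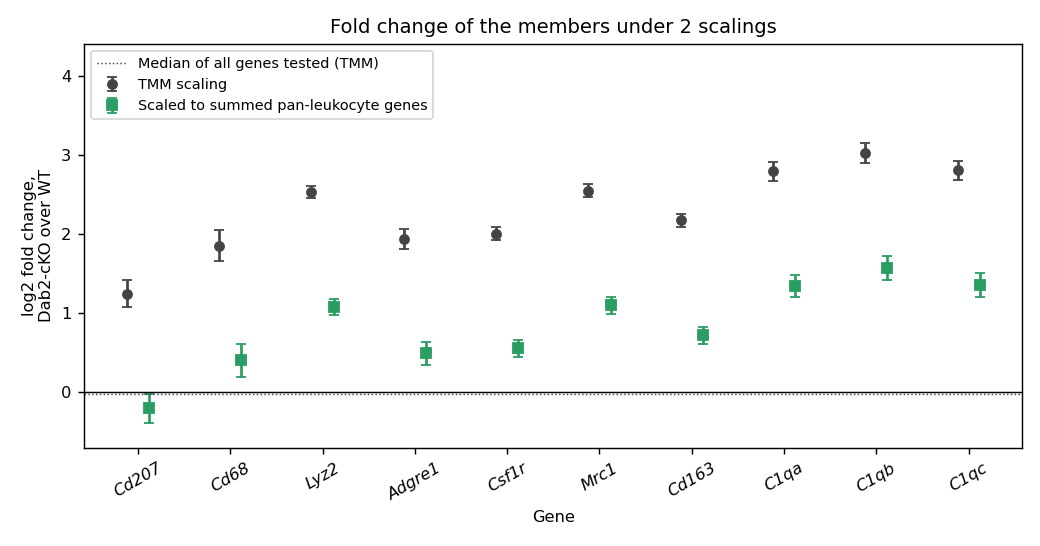
Log2 fold change (Dab2-cKO over WT) for each gene with its SE, under TMM scaling and with the libraries scaled to the summed pan-leukocyte list. Under TMM all 10 lie between 1.24 and 3.02, and relative to the leukocyte list 9 stay above 0 and Cd207 lies at -0.20.

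The lists of related genes were read from the same test. Of the 20 leukocyte genes, 20 were higher and 0 lower, with a median log2 fold change of 1.51. Among them were Tyrobp (2.08) and Fcer1g (2.23), which encode signalling adaptors of myeloid receptors, and Cd48 (2.31), a surface glycoprotein of blood cells. Of 34 other genes of macrophages and monocytes, 27 were higher and 3 lower, with a median of 1.63. Pf4, which encodes a chemokine, had the largest rise, from 26.7, 33.4 and 38.5 to 337, 341 and 304 normalized counts, a log2 fold change of 3.29. F13a1, encoding a subunit of coagulation factor XIII, and Cbr2, a carbonyl reductase gene expressed by dermal macrophages, rose by 2.79 and 2.24. Among those that fell were Slc40a1 (-2.66), the gene of the iron exporter ferroportin, and Gpnmb (-2.36), which melanocytes also express. Not called were Cx3cr1 (-0.22), Marco (0.28), Trem2 (-0.27) and Vsig4 (-0.38). Apart from Slc40a1, the genes in these last 2 sentences were named after their values were seen.

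Of 24 other genes of Langerhans and dendritic cells, 14 were higher, 0 lower and 10 not called, with a median log2 fold change of 0.54. The genes of antigen presentation by MHC class II, which macrophages also express, were the most abundant per kb of exon. Cd74, the invariant chain gene, had 660, 811 and 708 normalized counts in the WT and 3384, 3438 and 3445 in the Dab2-cKO libraries, a log2 fold change of 2.23, and H2-Ab1, an MHC class II chain gene, rose by 2.02. The largest rise was that of Mgl2 (2.43), a lectin gene of dermal dendritic cells and macrophages. Ly75, which encodes the antigen uptake receptor DEC-205 of Langerhans and dendritic cells, had 180, 171 and 164 against 185, 163 and 171, a log2 fold change of 0.01 (SE 0.13). Itgax, the gene of CD11c, had 105, 107 and 94.0 against 97.3, 139 and 98.2, a log2 fold change of 0.12 (SE 0.17). Both of these overlapped between the genotypes, did not pass the test, and were named after their values were seen. With library size as the only scaling, which moved the median of all genes from -0.02 to -0.45, 7 of the 24 were higher and 3 lower.

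Of 15 genes of colony-stimulating factors, their receptors and myeloid regulators, 12 were higher and 0 lower (median log2 fold change 0.80). The ligands of the Csf1r receptor, named after their values were seen, both passed the test. Csf1 had 195, 178 and 200 normalized counts in the WT and 585, 667 and 684 in the Dab2-cKO libraries (log2 fold change 1.76, SE 0.10). Il34 had 75.7, 87.6 and 67.5 against 143, 152 and 135 (log2 fold change 0.90, SE 0.17). Cebpa (0.75) and Cebpb (0.27) rose less, and Maf, Csf2 and Csf3 were not called.

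Of 22 complement genes that passed the expression filter besides C1q, 14 were higher and 1 lower, with a median of 0.99. Cfd, the gene of factor D, made largely by adipocytes, rose by a log2 fold change of 2.19. Serping1, which encodes the inhibitor of C1r and C1s, rose by 1.70, from 321, 427 and 405 to 1283, 1233 and 1256 normalized counts. The proteases that C1q activates, C1ra (1.54) and C1s1 (1.78), had smaller log2 fold changes than the C1q genes, and are named after their values were seen. Masp2, a protease gene of the lectin pathway, fell by 0.89 on the log2 scale. Of 20 genes of lysosomes and phagocytosis, 17 were higher and 1 lower, with a median of 0.92. Ctss, the gene of the cathepsin of antigen-presenting cells, rose from 118, 125 and 122 to 1223, 1263 and 1220 normalized counts, a log2 fold change of 3.34. The lysosomal genes that most cells use moved less, with Psap at 1.04, Ctsd at 0.31 and Ctsl at -0.39.

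**Figure D5:**
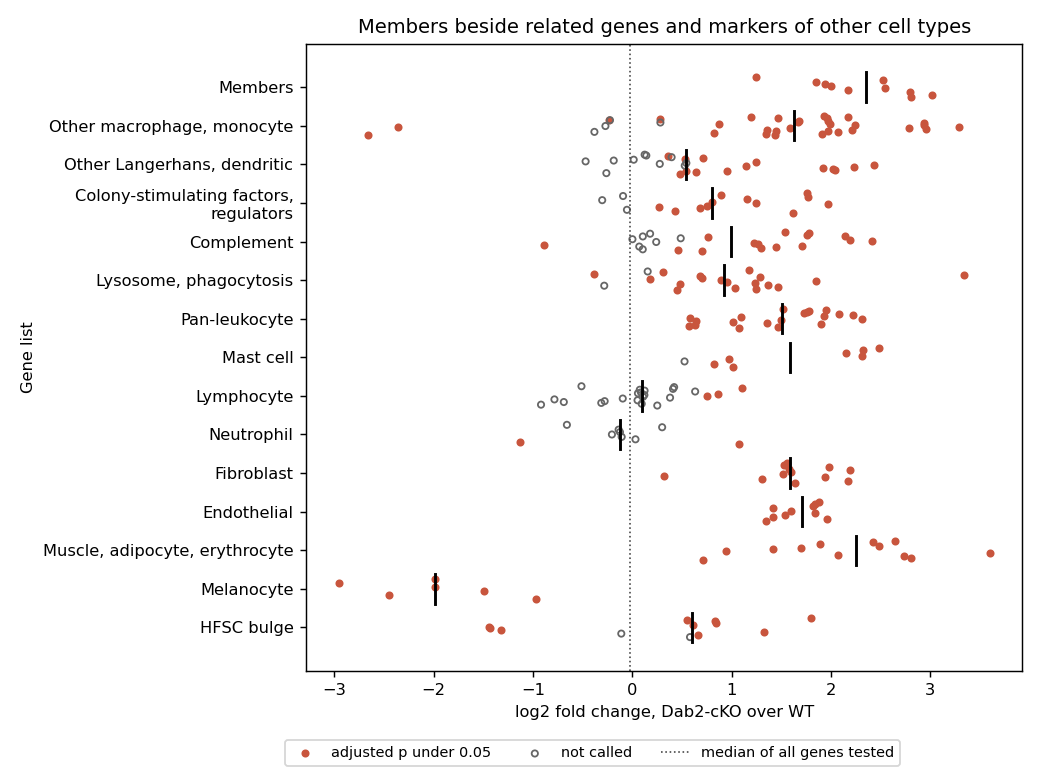
Log2 fold change (Dab2-cKO over WT) for each gene of each list (filled, called at an adjusted p under 0.05; open, not called), with the list's median as a bar and the median of all genes tested (-0.02) as a dotted line. The 10 members have a median of 2.35, the other macrophage genes 1.63, the fibroblast genes 1.59 and the melanocyte genes -1.99.

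Markers of several other cell types rose as the members did, while those of melanocytes fell and those of the bulge were mixed. Of 12 fibroblast genes 12 were higher (median log2 fold change 1.59), with summed normalized counts from 104428 to 126092 in the WT and from 364945 to 385015 in the Dab2-cKO libraries. Col3a1 and Col1a1, collagen genes of the dermis, rose by 1.98 and 1.56 and Lum, a proteoglycan gene, by 2.19. Of 10 endothelial genes 10 were higher (median 1.71), summed from 1715 to 1953 and from 6012 to 6139, among them Pecam1 (1.88), Cdh5 (1.84) and Egfl7 (1.96). Of 12 genes of muscle, adipocytes and erythrocytes 12 were higher (median 2.25), summed from 23193 to 26693 and from 117665 to 119625, among them Acta1 (2.65), Myh4 (1.89) and Hba-a1 (3.60). The 6 melanocyte genes were lower (median -1.99), summed from 3243 to 3588 and from 1099 to 1119, with Dct at -1.50, Pmel at -1.99 and Tyr at -2.96. Of 12 bulge genes 7 were higher and 3 lower, with Cd34 at 1.80, Krt15 at 0.84 and Itga6 at 0.55. The 3 that fell, named after their values were seen, were Sox9 (-1.45), Lhx2 (-1.43) and Lgr5 (-1.32), which encode 2 transcription factors and a Wnt pathway receptor of HFSCs. None of the genes of these lists was at 0 in any library, and their part in the members' rise was not tested. Dab2 itself, which macrophages are known to express, had 20.8, 18.8 and 18.3 counts per 100 member counts in the WT and 16.7, 14.6 and 15.6 in the Dab2-cKO libraries. With the libraries scaled to the leukocyte list Dab2 was still higher (log2 fold change 0.63, adjusted p = 3.31e-08 by edgeR). Scaled to the fibroblast list it was also higher (0.38, adjusted p = 3.81e-05 by edgeR). The source of the rise of Dab2 was not tested.

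Markers of other leukocytes were counted in the same way. Of 8 mast cell genes 7 were higher (median 1.58), summed from 368 to 389 in the WT and from 1367 to 1396 in the Dab2-cKO libraries, with the protease genes Cpa3 (2.48), Cma1 (2.32) and Mcpt4 (2.31). Of 23 lymphocyte genes 3 were higher and 0 lower (median 0.10), summed from 914 to 934 and from 1068 to 1146. The 3 were Cd3g (1.11), a gene of the CD3 complex of T cells, Cd4 (0.86) and Zap70 (0.75), the last 2 named after their values were seen. Cd2 at 0.63 missed the threshold (adjusted p = 0.0532 by edgeR). Of 9 neutrophil genes tested, S100a9 was higher (1.08), S100a8 lower (-1.13) and Camp not called (-0.12), and the summed level overlapped, from 274 to 328 and from 278 to 310. With library size as the only scaling 1 lymphocyte gene was higher and 5 were lower, and 0 neutrophil genes were higher and 3 lower.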

How the data were processed

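Total RNA of FACS sorted HFSCs was sequenced by the authors in 3 WT and 3 Dab2-cKO libraries, each made from 5 ng of RNA with a SMARTer Stranded total RNA kit. Per the submitters' processing notes and the methods, reads were trimmed with fastp 0.23.4, aligned to GRCm39 with HISAT2 2.2.1 and counted per gene with featureCounts 2.0.6. The deposited counts are whole numbers without normalization. Whether counting used strand, how reads with more than 1 position were handled and which annotation release was used are not given in the sources used here. The deposited table of the authors' own DESeq2 comparison (fold changes, p-values and counts divided by size factors) was not used.

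Genes were filtered by edgeR 4.0.16 (R 4.3.3) with its default expression filter, normalized by TMM and tested by its robust quasi-likelihood method, with all 6 libraries in 1 fit of genotype and Benjamini-Hochberg adjustment over the 32149 genes kept. The threshold for a call was an adjusted p under 0.05, and no list was tested. Each SE was derived from this test, as the absolute log2 fold change over the square root of its F statistic. The fit was tested on simulated data. A normalized count is the count over the library's effective size (total over the genes kept times TMM factor), multiplied by the mean effective size of the 6 libraries. Total counts over all genes ranged from 7040032 to 11696457, and the lowest member count rested on 34 reads. Precision covers counting and the spread between libraries only. Libraries of a group differed by more than sampling noise. Exon lengths, coordinates and overlaps are from GENCODE vM39.

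The members and lists were chosen with earlier results of these data known. Named genes are the members, Dab2, the 2 most abundant genes per kb of each list, its largest called rise and fall at a mean of 20 normalized counts or more, and Cd34, Itga6 and Krt15. Genes named otherwise are marked. Some genes that fall under this rule or these lists are not reported here by name. The alternatives were DESeq2 1.42.0, other scalings and filters, a replicate block, each library left out, a test against 1.5-fold and background subtraction. Scaling to leukocyte and fibroblast genes was chosen after seeing the data.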

Additional observations from a re-analysis of the deposited data

How the results depend on the processing

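The number of members called higher stayed 10 and the number called lower 0 under DESeq2, upper-quartile scaling, library size only, TMM without mitochondrial and abundant genes, no filter, a minimum mean count of 50, a test against 1.5-fold, and each library left out. The scalings chosen after seeing the data differed. Scaled to leukocyte genes, the log2 fold change of Cd207 was -0.20. Scaled to fibroblast genes, it was -0.45, which made 1 member lower. By construction these scalings move the median of all genes to -1.47 and -1.72. Library size only, which moved that median to -0.45, gave the lowest planned value of every member (Cd207 0.82, C1qb 2.60) and raised the genes called from 9069 to 13854. Of the called genes, 59.4% were higher under TMM, 43.5% under upper-quartile scaling and 19.4% with library size only. With each library left out in turn, 7996 to 8546 genes were called. Background subtraction raised C1qb to 3.91. Deviations of same-numbered libraries from their group means had correlations of 0.0231, 0.0117 and 0.00759, against -0.0177 to 0.00546 for differently numbered ones. With 3 libraries per group these values cannot exclude a pairing. The replicate block gave 8967 genes called and 10 members higher. Cd68 and Cd207 had the largest SEs of the members (0.19 and 0.17).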
